A study of Homo sapiens with 12 samples.

Results

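The 10 genes described here are NFE2L2, KEAP1, HMOX1, NQO1, GCLC, GCLM, GSR, TXNRD1, SRXN1 and GPX4, the core of the NRF2 antioxidant pathway and of the glutathione system. They were taken by name from the 43769 genes of the count table and followed through all 12 RNA-seq libraries. The cells were SK-N-DZ, an established human neuroblastoma line, in which an shRNA to ARID1A, a subunit of the SWI/SNF chromatin remodeling complex, can be switched on with doxycycline. The 4 groups held 3 libraries each. Group C was the control (genotype label WT, no agent), group D received doxycycline for 4 days (genotype label shARID1A), group I received interferon gamma (IFNγ) for 24 h (WT), and group DI received both agents (shARID1A). Per the methods of the study, the hairpin lines were clones, each picked and grown after puromycin selection. No library had doxycycline without the shARID1A label, so doxycycline, the hairpin and loss of ARID1A cannot be told apart. Per the series design and the study, the sequenced cells carried the inducible hairpin, whereas the genotype label of C and I is WT. Libraries are called by group and replicate number (D3 is doxycycline, replicate 3). The labels do not say whether a replicate is a separate culture, so p-values measure the spread between these samples, which may be technical.

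NRF2, encoded by NFE2L2, is a transcription factor that KEAP1 normally binds and hands over for degradation. When reactive electrophiles or oxidants modify KEAP1, NRF2 escapes, enters the nucleus, pairs with small MAF proteins and binds antioxidant response elements near its target genes. Because this control acts on the protein, the NFE2L2 mRNA level is a poor guide to NRF2 activity. Its targets rebuild and recycle glutathione and thioredoxin, the main thiol reductants of the cell, and remove quinones, free heme and peroxides.

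A 9-base core of the antioxidant response element, TGACNNNGC, was searched on both strands of RefSeq promoter windows on GRCh38.p14, which run from 250 bases before to 50 bases after a gene's start. Of the 10 genes, 8 had windows, 13 in all (HMOX1 and GSR had none), and the core was found in 4 of these 13 windows (30.8%), belonging to GCLM, TXNRD1 and KEAP1. Of all 35116 windows 13.3% held the core, and of the 29 windows of other known NRF2 targets 9 did (31.0%). A match is a run of letters and no evidence of binding, and elements farther from the start lie outside these windows. The AP-1-like runs TGACTCA and TGAGTCA overlapped none of the matches. The stretches below show the matches in these 3 genes, each read 5′ to 3′ on the gene's own strand with 20 bases on either side and with the 9-base core in capitals, in either orientation. The first is at chr1:93909436-93909484 (minus strand), the next 3 are at chr12:104215660-104215708, chr12:104215751-104215799 and chr12:104286910-104286958 (plus strand), and the last 2, which overlap each other, are at chr19:10502797-10502845 and chr19:10502774-10502822 (minus strand).
GCLM: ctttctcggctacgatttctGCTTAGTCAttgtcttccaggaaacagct
TXNRD1 upstream start, first core: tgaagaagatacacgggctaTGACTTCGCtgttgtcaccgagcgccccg
TXNRD1 upstream start, other core: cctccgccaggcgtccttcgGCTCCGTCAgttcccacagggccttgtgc
TXNRD1 downstream start: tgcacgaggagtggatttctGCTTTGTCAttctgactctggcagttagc
KEAP1, first core: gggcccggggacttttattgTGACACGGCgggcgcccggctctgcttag
KEAP1, other core: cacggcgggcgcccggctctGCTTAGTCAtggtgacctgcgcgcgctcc
GCLM and KEAP1 carried the same 9-base run (TGACTAAGC when read on the strand that starts with TGAC), 34 and 31 bases before their start sites.

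Depth ran from 16469832 to 21790869 counts per library, so that 3 counts, the limit below which a level was read as not detected, stood for 0.135 to 0.187 CPM (counts scaled by TMM to a common library size). ARID1A itself, the target of the hairpin, was read at 197, 186 and 165 CPM in the control libraries and at 197, 159 and 158 CPM with doxycycline (log2 fold change -0.09, SE 0.11, adjusted p = 0.788). Under IFNγ it was read at 192, 203 and 194 CPM without and at 151, 133 and 148 CPM with doxycycline (-0.44, SE 0.11, adjusted p = 0.115, or 0.0111 with the replicate number as a block). A lower ARID1A mRNA was therefore not detectable in group D, and D and DI are called by their labels. All 15 neuroblastoma markers were detected in every library, with a summed level of 5480 to 7320 CPM, and 1 of them, the neuronal gene STMN2, was called lower in both doxycycline comparisons (log2 fold change -1.37 and -1.21; 1.23% and 0.67% of all genes were called in either direction). With the replicate number as a block, 4 of the 15 fell in D against C (STMN2, GAP43, HAND2 and DBH; 13.9% of all genes called) and the first 3 of these fell in DI against I (10.5%), and 0 rose. With doxycycline averaged over both IFNγ states, a comparison added after the data were seen, edgeR without the block called STMN2, GAP43 and TH lower (7.68% of all genes called). With the block, the same comparison called STMN2, GAP43, TH, HAND2 and DBH lower and CHGB and GATA3 higher (29% of all genes called). TH, the rate-limiting enzyme of catecholamine synthesis, varied widely, at 47.3, 3.13 and 74.7 CPM in C and 1.34, 7.04 and 0.695 in D. Markers of other cells were low: fibroblast genes summed to 42.7 to 161 CPM, Schwann cell genes to 2.29 to 11 CPM with SOX10 not detected, and leukocyte genes to 0.198 to 1.5 CPM with CD3E not detected.

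All 10 genes were detected in every library and passed the filter on low counts. Compared per kilobase of exon in the 3 control libraries, GPX4 was the most abundant (108 to 169 CPM per kb), followed by TXNRD1 (42.4 to 53.3), GSR (33.3 to 37.9), KEAP1 (29.6 to 34.3), NFE2L2 (13.8 to 15.3), GCLC (5.23 to 8.17), GCLM (2.87 to 5.41), NQO1 (1.98 to 2.47), SRXN1 (0.920 to 1.64) and HMOX1 (0.268 to 1.02). Neighbours in this order overlapped between libraries at 3 places: GSR with KEAP1, GCLC with GCLM, and SRXN1 with HMOX1.

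None of the 10 genes passed the test in any of the 5 comparisons planned. The test was the edgeR quasi-likelihood fit of all 12 libraries, with p-values adjusted over 15828 genes and a threshold of 0.05. In D against C 0 of 10 were called where 1.23% of all genes were, in DI against I 0 of 10 (background 0.67%), in I against C 0 of 10 (2.21%), in DI against D 0 of 10 (1.72%), and for the difference between the doxycycline effects with and without IFNγ (the interaction) 0 of 10 (0%). DESeq2 also called 0 of 10 in each, where in that order it called 4.11%, 2.98%, 3.32%, 2.55% and 0.00632% of all genes. At an unadjusted p under 0.05 there was 1 gene in D against C (NQO1, background 14.2%), 1 in DI against I (NQO1, 12.2%), 1 in I against C (NFE2L2, 8%), 0 in DI against D (6.24%) and 0 for the interaction (0.625%). Over the 10 genes the log2 fold changes had a median of 0.12 in D against C, 0.26 in DI against I, -0.01 in I against C and 0.05 in DI against D, beside medians over all genes between -0.01 and 0.00. The replicate numbers were found to pair the libraries across groups. With the number as a block 1 gene was called in DI against I (GCLC, background 10.5%) and 1 in DI against D (GCLM, background 4.46%), and 0 in D against C (13.9%), I against C (6.02%) and the interaction (0%). In same-numbered pairs, 1 of 10 genes was higher in 3 of 3 pairs in D against C (NQO1, background 22.5%), 4 in DI against I (NQO1, GCLC, GSR and SRXN1, 21.3%), 3 in I against C (NFE2L2, KEAP1 and GCLM, 23.5%) and 4 in DI against D (the last 3 and NQO1, 19.8%). In 3 of 3 pairs 1 was lower in D against C (GPX4, 22.4%), 1 in DI against I (GPX4, 24.5%), 4 in I against C (GCLC, TXNRD1, SRXN1 and GPX4, 23.7%) and 2 in DI against D (GCLC and GPX4, 22.4%). The groups did not overlap for 0 genes in D against C (background 19.2%), 0 in DI against I (16.6%), 1 in I against C (NFE2L2, 15.1%) and 0 in DI against D (9.55%). Absence of a call is weak evidence here. In data simulated with each gene's spread within groups, D against C without the block recovered 33 of 100 genes planted at a log2 change of 1. At a change of 2 it recovered 65 of 100. The simulated libraries were independent, with no effect shared by a replicate number, so they do not describe the fit with the block.

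**Figure D1:**
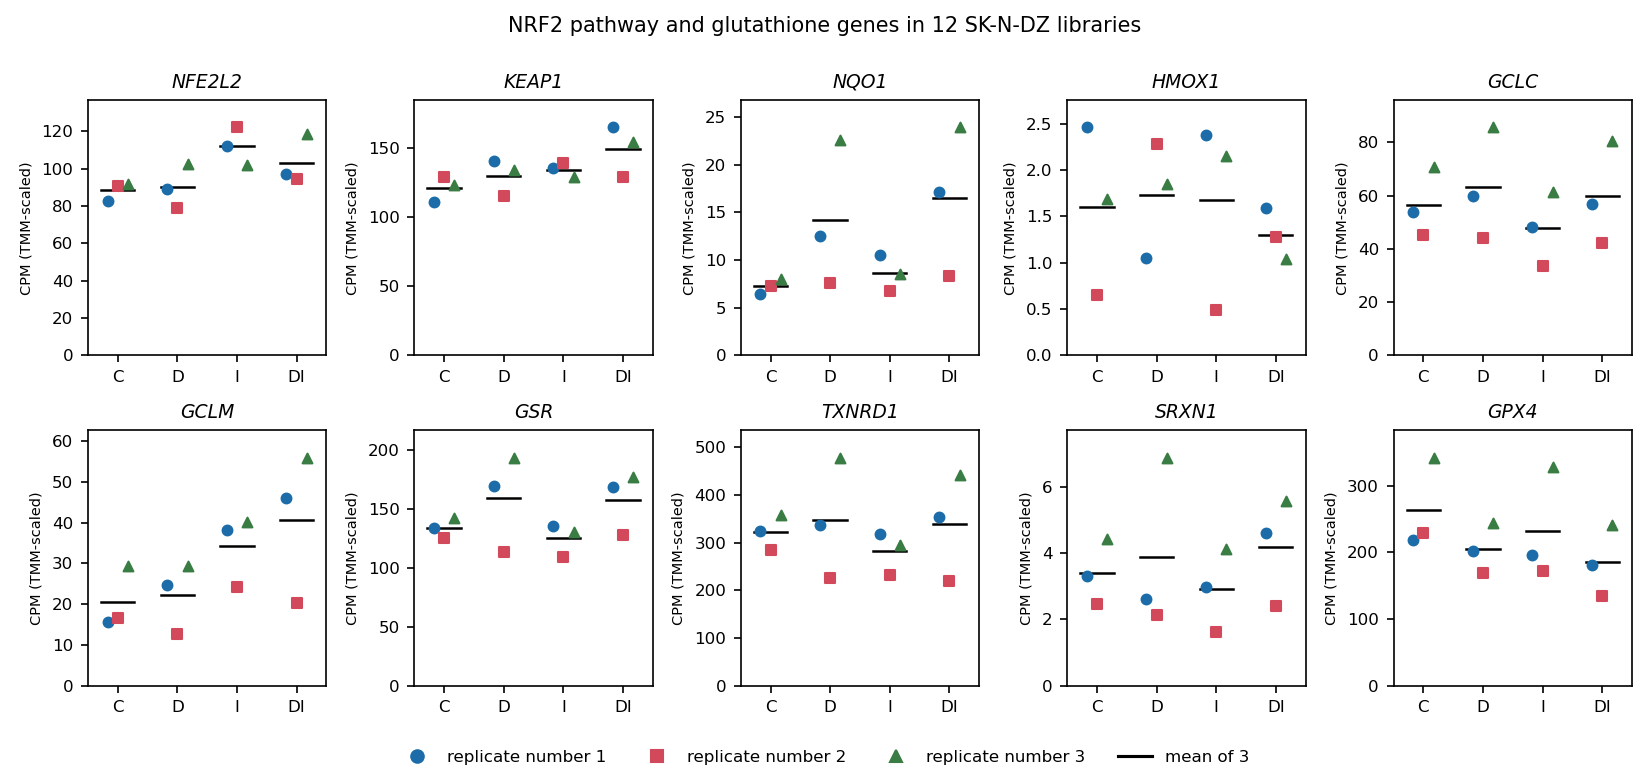
Level of each of the 10 genes in CPM (TMM-scaled counts, linear axis) in the 4 groups; each point is 1 library, its shape and colour give the replicate number, and the bar is the mean of 3. NQO1 reached 22.6 and 23.9 CPM in D3 and DI3, GCLM stood higher in I and DI than in C and D of the same number, and for GCLC and SRXN1 replicate 2 sat lowest and replicate 3 highest in all 4 groups.

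The transcription factor and its inhibitor varied least. NFE2L2 (chr2:177227595-177392697, minus strand) stood at 82.6, 90.8 and 91.7 CPM in C, 89.0, 79.0 and 102 in D, 112, 122 and 102 in I, with 96.9, 94.6 and 118 in DI. All 3 I libraries lay above all 3 C libraries, while D overlapped C and DI overlapped both D and I. Its log2 fold change was 0.34 in I against C (SE 0.13, adjusted p = 0.377) and 0.20 in DI against D (SE 0.12, adjusted p = 1.00), higher in 3 of 3 same-numbered pairs each time, and 0.03 in D against C (95% interval -0.25 to 0.30). About 17.6% of its exonic length is shared with AC019080.1, a transcript on the same strand that took at most 97 counts. How reads in the shared part were counted is not given, so the number of NFE2L2 reads affected is not known.

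KEAP1 (chr19:10486120-10503741, minus strand), the adaptor that brings NRF2 to the CUL3 ubiquitin ligase, was at 111, 129 and 123 CPM in C, 141, 115 and 134 in D, 135, 139 and 129 in I, with 165, 129 and 155 in DI. The groups overlapped in every comparison, although KEAP1 was higher with IFNγ in 3 of 3 pairs both without doxycycline (log2 fold change 0.15, SE 0.11, adjusted p = 0.996) and with it (0.20, SE 0.11, adjusted p = 1.00). With doxycycline it was higher in replicates 1 and 3 and lower in replicate 2, both with and without IFNγ. Its 95% interval in D against C, -0.15 to 0.35 on the log2 scale, spans 0.

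NQO1 (chr16:69706996-69726951, minus strand), which reduces quinones without making radicals and is a widely used readout of NRF2, showed the largest difference with doxycycline of the 10 genes. It was at 6.45, 7.25 and 8.04 CPM in C and at 12.5, 7.56 and 22.6 in D. With IFNγ it was at 10.5, 6.76 and 8.54 CPM in I and at 17.1, 8.36 and 23.9 in DI. Replicates 1 and 3 were high with doxycycline, whereas D2 lay within the range of C and DI2 within the range of I. The log2 fold change was 0.97 in D against C (SE 0.42, adjusted p = 0.329) and 0.93 in DI against I (SE 0.42, adjusted p = 0.401). NQO1 was higher with doxycycline in 3 of 3 pairs each time, by 0.94, 0.06 and 1.48 without IFNγ and by 0.70, 0.30 and 1.47 with it. Without replicate 3 of D the first value was 0.47, and without replicate 3 of DI the other was 0.56. IFNγ gave 0.25 in I against C (adjusted p = 1.00) and 0.22 in DI against D (adjusted p = 1.00). An antisense transcript, AC092115.2, covers 17.7% of the exonic length of NQO1 and has no row of its own in the count table. Without a stated strand setting its reads cannot be told apart from those of NQO1.

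HMOX1 (chr22:35380361-35394214, plus strand), which breaks down heme, had the lowest level of the 10 genes. Its counts ran from 9 in I2 (0.491 CPM) to 48 in I1 (2.38 CPM). The levels were 2.46, 0.646 and 1.68 CPM in C, 1.05, 2.28 and 1.85 in D, 2.38, 0.491 and 2.15 in I, with 1.59, 1.28 and 1.04 in DI. All groups overlapped, and replicates of 1 group differed as much as the groups did. Its log2 fold change was 0.12 in D against C, with a 95% interval of -1.21 to 1.45, the widest of the 10 genes.

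The glutathione enzymes come next. GCLC (chr6:53497341-53616970, minus strand), the catalytic subunit of the enzyme that limits glutathione synthesis, was at 53.7, 45.2 and 70.7 CPM in C, 59.9, 44.2 and 85.6 in D, 48.2, 33.7 and 61.4 in I, with 56.9, 42.2 and 80.4 in DI. The groups overlapped in all comparisons. In each group replicate 3 was high and replicate 2 low. Within pairs GCLC was higher with doxycycline in 3 of 3 in the presence of IFNγ, by 0.24, 0.33 and 0.39 on the log2 scale, and in 2 of 3 without it, by 0.16, -0.03 and 0.28. The fit without the block gave 0.33 in DI against I (SE 0.31, adjusted p = 0.765), and the fit with the block gave 0.32 (SE 0.08, adjusted p = 0.0295). In D against C the blocked value was 0.13 (SE 0.08, adjusted p = 0.287). With IFNγ, GCLC was lower in 3 of 3 pairs both without doxycycline (-0.24, SE 0.31, adjusted p = 1.00) and with it (-0.08, SE 0.31, adjusted p = 1.00).

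GCLM (chr1:93885205-93909456, minus strand), the modifier subunit that makes the GCLC enzyme more efficient, showed the largest difference with IFNγ of the 10 genes. It was at 15.6, 16.6 and 29.3 CPM in C and at 38.1, 24.1 and 40.2 in I. With doxycycline it was at 24.8, 12.8 and 29.4 CPM in D and at 46.0, 20.2 and 55.9 in DI. I1 and I3 lay above all of C, but I2 lay below C3, and DI2 lay below D1 and D3. Within pairs GCLM was higher with IFNγ in 3 of 3 without doxycycline, by 1.29, 0.53 and 0.46, and in 3 of 3 with it, by 0.89, 0.66 and 0.92. The log2 fold change was 0.74 in I against C (SE 0.42, adjusted p = 0.821) and 0.87 in DI against D (SE 0.41, adjusted p = 0.865). With the block, DI against D passed at 0.84 (SE 0.20, adjusted p = 0.0385) and I against C did not, at 0.73 (SE 0.20, adjusted p = 0.0612). The difference between these IFNγ effects was 0.11 with the block (SE 0.28) and 0.13 without it (SE 0.58, adjusted p = 1.00). It was called in neither fit. The subunits of this enzyme thus stood on opposite sides of 0 with IFNγ, GCLM above and GCLC below, in every pair.

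GSR (chr8:30678061-30727999, minus strand), which turns oxidised glutathione back to its reduced form, was at 134, 125 and 143 CPM in C, 170, 114 and 193 in D, 135, 110 and 131 in I, with 169, 128 and 177 in DI. D1 and D3 were above all of C and D2 was below it, while DI1 and DI3 were above all of I and DI2 lay within it. It was higher with doxycycline in 2 of 3 pairs without IFNγ (log2 fold change 0.25, SE 0.19, adjusted p = 0.618) and in 3 of 3 with it (0.33, SE 0.19, adjusted p = 0.536). Without replicate 3 of D the first value was 0.08. IFNγ gave -0.10 in I against C and -0.01 in DI against D, both with an SE of 0.19.

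In the thioredoxin arm, TXNRD1 (chr12:104215779-104350305, plus strand), the selenoenzyme that keeps cytosolic thioredoxin reduced, was at 324, 284 and 358 CPM in C, 337, 225 and 478 in D, 319, 233 and 295 in I, with 354, 219 and 441 in DI. D2 and DI2 were the lowest of the 12 libraries and D3 and DI3 the highest, so the doxycycline groups had a wider spread (SD 127 and 112 CPM) than C and I (SD 36.7 and 44.5). The log2 fold change was 0.11 in D against C (SE 0.28, adjusted p = 0.921) and 0.26 in DI against I (SE 0.28, adjusted p = 0.808), with replicate 2 below 0 in both. SRXN1 (chr20:646615-653370, minus strand), which repairs overoxidised peroxiredoxins, was at 3.32, 2.48 and 4.43 CPM in C, 2.62, 2.12 and 6.89 in D, 2.97, 1.64 and 4.14 in I, with 4.62, 2.41 and 5.58 in DI. It was higher in DI than in I in 3 of 3 pairs (log2 fold change 0.53, SE 0.51, adjusted p = 0.770) and higher in D than in C in 1 of 3 (0.18, SE 0.51, adjusted p = 0.925). Without replicate 2 of I the DI against I value was 0.24, and without replicate 3 of D the other was -0.52. The SRXN1 counts are uncertain, since 85.0% of its exonic length is shared with AL121758.1, an overlapping gene model on the same strand. AL121758.1 has no row of its own in the count table.

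GPX4 (chr19:1103926-1106791, plus strand), the selenoenzyme that uses glutathione to reduce lipid peroxides and protects cells from ferroptosis, was the only one of the 10 that was lower in 3 of 3 pairs in both doxycycline comparisons. It was at 218, 228 and 342 CPM in C, 202, 170 and 244 in D, 196, 172 and 328 in I, with 181, 134 and 241 in DI. The groups overlapped, but in each of the 4 comparisons GPX4 was lower in 3 of 3 pairs. The log2 fold change was -0.36 in D against C (SE 0.29, adjusted p = 0.643) and -0.32 in DI against I (SE 0.29, adjusted p = 0.742), and -0.18 and -0.15 with IFNγ (adjusted p = 1.00 for both). Without replicate 3 of I the DI against I value was 0.03, and without replicate 3 of C the D against C value was -0.12.

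**Figure D2:**
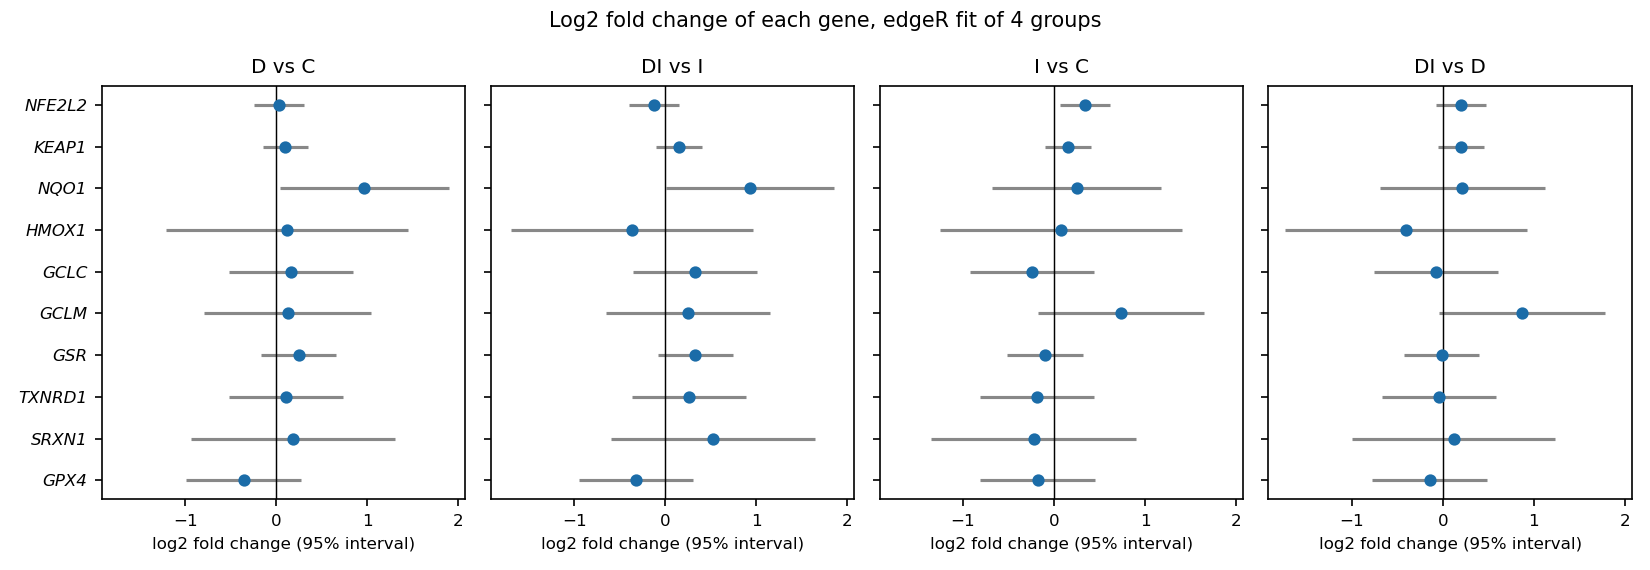
Log2 fold change of each gene (points, horizontal axis) with its 95% interval (lines) in the 4 comparisons of groups, from the edgeR fit without a replicate block. Only NQO1 in D against C and in DI against I and NFE2L2 in I against C have an interval that leaves out 0, and none passed the adjusted threshold.

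For 7 of these genes the libraries differed by replicate number. After the mean of each group was removed, the edgeR F test of replicate number, chosen after the data were seen, called 7 of 10 genes where 44% of all genes were called. The adjusted p was 3.01e-05 for GCLC, 0.000388 for GPX4, 0.00247 for GCLM, 0.00282 for SRXN1, 0.00396 for TXNRD1, 0.00721 for GSR and 0.0310 for NQO1, against 0.444 for NFE2L2, 0.462 for HMOX1 and 0.628 for KEAP1. The regulators, NFE2L2 and KEAP1, were thus not called, and the enzymes other than HMOX1 were. Replicate 2 was the lowest in all 4 groups for 4 of 10 genes (GCLC, TXNRD1, SRXN1 and GSR; background 11.9%), replicate 3 was the highest in all 4 for 4 of 10 (GCLC, GCLM, SRXN1 and GPX4; background 14.2%), and both held for GCLC and SRXN1 (background 4.98%).

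Averaged over the 4 groups, replicate 3 exceeded replicate 2 by 2.35-fold for SRXN1, 2.07-fold for GCLM, 1.85-fold for NQO1, 1.80-fold for GCLC, 1.65-fold for GPX4, 1.62-fold for TXNRD1 and 1.34-fold for GSR. The 3 genes not called were at 1.57-fold (HMOX1), 1.08-fold (NFE2L2) and 1.05-fold (KEAP1). The median log2 difference of replicate 3 over replicate 2 was 0.705 for the 10 genes and -0.0126 for all genes, whose 5th and 95th percentiles were -1.21 and 0.928. Depth overlapped between the numbers, at 16677455 to 21096267 counts for replicate 1, 18162578 to 20157365 for replicate 2 and 16469832 to 21790869 for replicate 3. Cell markers moved with the number too. Of 7 fibroblast markers 5 were called, where 44% of all genes were, and all 5 were lower in replicate 3 than in replicate 2. PDGFRA was at 0.257-fold and COL1A1 at 0.0967-fold. COL1A1 took only 0 to 97 counts and was not detected in D3 (0.0579 CPM) or I3 (0 CPM), so its ratio is uncertain. The summed level of the fibroblast markers was 61.7 to 88.8 CPM in replicate 1, 105 to 161 in replicate 2 and 42.7 to 85.9 in replicate 3. Of 15 neuroblastoma markers 10 were called (44% of all genes), 6 of them higher in replicate 3 than in replicate 2 (GATA2 2.09-fold, HAND2 1.91-fold) and 4 lower (DBH 0.454-fold). Their summed level was 5790 to 6300 CPM in replicate 1, 5480 to 6560 in replicate 2 and 6370 to 7320 in replicate 3. What differed between the replicates is not stated in the labels, and its part in these levels was not tested. As a description over the 12 libraries, which share depth and scaling, the deviations of GCLM, TXNRD1, GCLC, NQO1, SRXN1 and GSR from their group means correlated with each other at Pearson's r of 0.842 to 0.975 over 15 pairs. These 6 were not named in advance, so the narrow range may reflect their choice. GPX4, also called by replicate number, correlated with the 6 at 0.671 to 0.915. No such range was computed for genes outside the 10. All 45 pairs of the 10 genes ran from -0.491 to 0.975 with a median of 0.671.

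**Figure D3:**
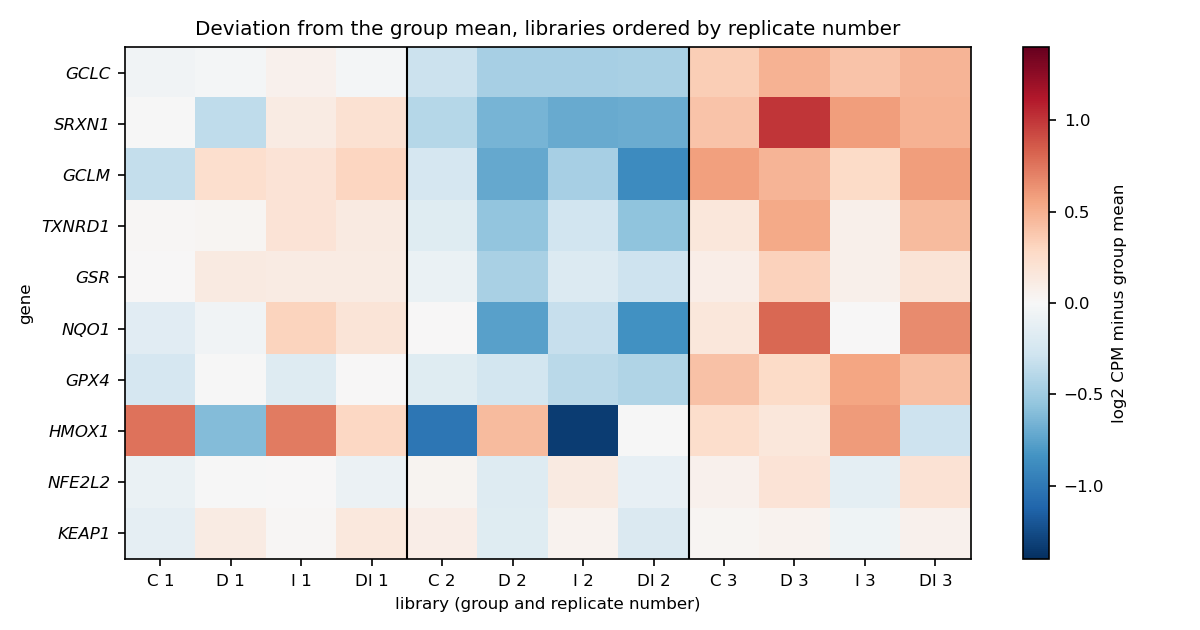
Deviation of each gene (rows) from the mean of its group in each of the 12 libraries (columns), in log2 CPM, with red above and blue below the group mean. Apart from HMOX1, the enzyme genes lie below the group mean in all replicate 2 columns but 1 of NQO1 and above it in all replicate 3 columns, while NFE2L2 and KEAP1 stay close to 0.

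The doxycycline effect was also averaged over both IFNγ states (D and DI against C and I), and the IFNγ effect over both doxycycline states, as comparisons chosen after the data were seen. Without the block, edgeR called 0 of 10 genes for doxycycline (background 7.68%), with 1 gene at an unadjusted p under 0.05 (23.4% of all genes), and 0 of 10 for IFNγ (background 3.81%), with 2 such genes (11.7%). DESeq2 called 1, NQO1, for doxycycline (adjusted p = 0.0156, background 12.6%) and 0 for IFNγ (background 5.31%). In the edgeR fit NQO1 was at 0.95 (SE 0.30, adjusted p = 0.0798).

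With replicate number as a block, 4 of 10 genes were called for doxycycline, where 29% of all genes were, and 2 of 10 for IFNγ, where 10.9% were. With doxycycline NQO1 rose by 0.84 on the log2 scale (SE 0.20, adjusted p = 0.0111), GSR by 0.27 (SE 0.07, adjusted p = 0.0184) and GCLC by 0.23 (SE 0.06, adjusted p = 0.0122), and GPX4 fell by 0.32 (SE 0.07, adjusted p = 0.00901). With IFNγ GCLM rose by 0.79 (SE 0.14, adjusted p = 0.00402) and NFE2L2 by 0.27 (SE 0.08, adjusted p = 0.0485). TXNRD1 (0.13, SE 0.10), SRXN1 (0.30, SE 0.18), KEAP1 (0.12, SE 0.07) and HMOX1 (0.02, SE 0.39) did not pass for doxycycline. Read against these backgrounds, neither count sets the 10 genes apart from the rest of the table.

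**Figure D4:**
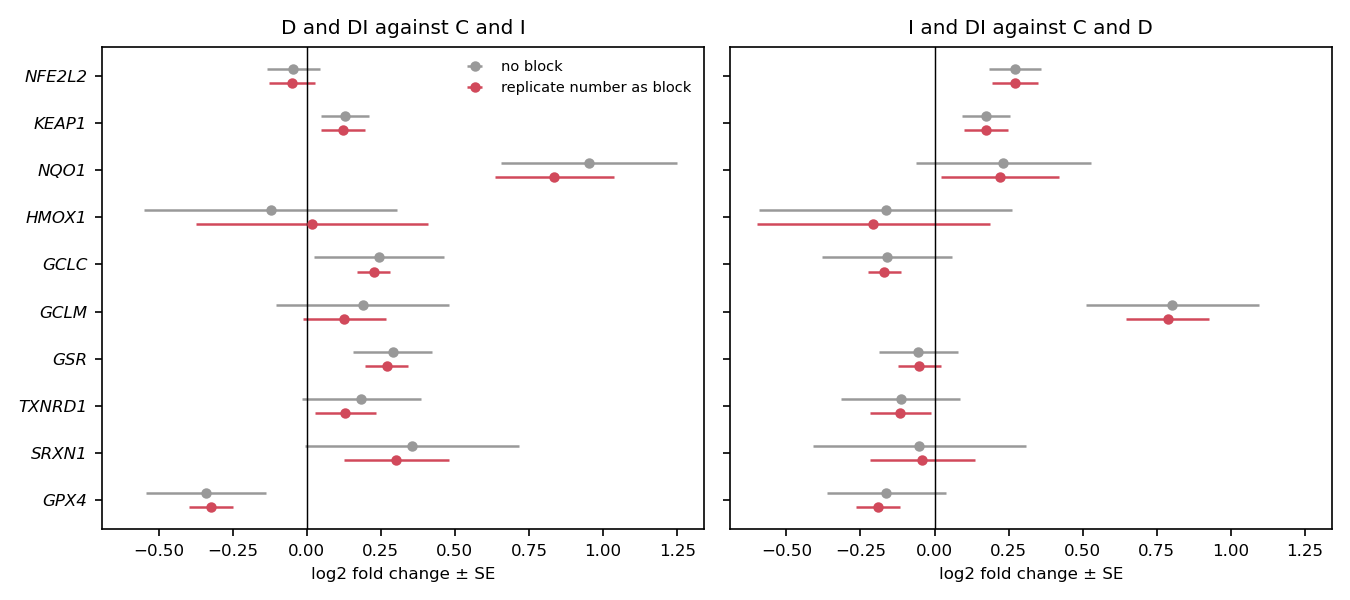
Log2 fold change (points) with 1 SE to either side (lines) for doxycycline averaged over both IFNγ states and for IFNγ averaged over both doxycycline states, without (grey) and with (red) replicate number as a block. With the block the SE of GCLC for doxycycline goes from 0.22 to 0.06, while that of KEAP1 goes from 0.08 to 0.07 and the HMOX1 estimate moves from -0.12 to 0.02.

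The wider pathway was read from 6 lists of genes outside the 10. Among 16 partners and regulators of NRF2 (median log2 fold change 0.11 in D against C, 0.04 in DI against I, 0.06 in I against C and 0.03 in DI against D), 0 were called by edgeR in either doxycycline comparison (1.23% of all genes in D against C and 0.67% in DI against I). At an unadjusted p under 0.05 there were 3 and 2 (14.2% and 12.2% of all genes), and DESeq2 called 2 and 1 (4.11% and 2.98%). With the block 2 were called in each (13.9% and 10.5%), and BTRC, part of the ubiquitin ligase that degrades NRF2 without KEAP1, rose in both. The other call was CREBBP, higher, in D against C and TRIM21, lower, in DI against I. With doxycycline averaged, edgeR without the block called 2 of the 16 (7.68% of all genes), BTRC and the acetyltransferase CREBBP, both higher. With IFNγ edgeR without the block called 1 of the 16 in I against C (2.21% of all genes) and 2 in DI against D (1.72%). TRIM21, an interferon-induced ubiquitin ligase, rose with IFNγ, from 0.430, 0.298 and 0.0623 CPM in C to 62.3, 66.0 and 48.5 in I (adjusted p = 1.24e-06) and from 0.620, 0.311 and 0.232 in D to 42.1, 42.1 and 29.5 in DI (adjusted p = 2.95e-06). MAFF, a small MAF protein that can pair with NRF2, rose with IFNγ in DI against D, from 1.62, 6.16 and 3.48 CPM to 16.9, 28.5 and 13.6 (log2 fold change 2.39, SE 0.47, adjusted p = 0.0230), and was at 1.97 in I against C (SE 0.46, adjusted p = 0.0541). With IFNγ averaged over both doxycycline states, edgeR without the block called MAFF and TRIM21 higher and CUL3 lower (3.81% of all genes called). Mean CUL3 went from 107 CPM in C to 85.3 in I, and from 99.7 in D to 78.2 in DI.

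Of 35 other NRF2 target genes 32 were tested, with a median log2 fold change of 0.01 in D against C and -0.02 in DI against I. By edgeR 0 were called in either doxycycline comparison (background 1.23% and 0.67%), with 8 and 6 at an unadjusted p under 0.05 (14.2% and 12.2%) and 2 and 1 called by DESeq2 (4.11% and 2.98%). With the block 7 were called in D against C (13.9% of all genes), of which OSGIN1 and SLC7A11 rose and AKR1B1, BLVRA, PGD, TALDO1 and TKT fell. In DI against I 3 were called (10.5%), of which OSGIN1 and SLC7A11 rose and TKT, an enzyme of the pentose phosphate pathway like PGD and TALDO1, fell. With doxycycline averaged, edgeR without the block called 6 of the 32, where 7.68% of all genes were called. SLC7A11 (log2 fold change 4.01, SE 0.70), AKR1C3 (2.26, SE 0.60), OSGIN1 (1.66, SE 0.45), AKR1C1 (1.37, SE 0.32) and UGDH (0.28, SE 0.07) were higher and TKT was lower (-0.30, SE 0.07). Some of these genes were near the limit of detection. AKR1C3 took 1 to 52 counts per library and was under the limit in I3 (0.0524 CPM). OSGIN1 took 5 to 81 counts and AKR1C1 16 to 125. The AKR1C genes are related in sequence, so their counts are uncertain. SLC7A11, the cystine importer that feeds glutathione synthesis and that 3 of the lists hold, was at 2.70, 1.79 and 1.62 CPM in C, 33.4, 7.66 and 114 in D, 5.59, 3.98 and 2.04 in I, with 36.7, 8.46 and 74.7 in DI. All doxycycline libraries lay above all others for SLC7A11, with D3 and DI3 the highest. Its log2 fold change was 4.66 in D against C (SE 1.03, adjusted p = 0.0591, or 0.00892 with the block) and 3.36 in DI against I (SE 0.95, adjusted p = 0.173, or 0.0354 with the block). With IFNγ 2 of the 32 rose in each comparison (2.21% and 1.72% of all genes called), the metallothionein MT2A (log2 fold change 5.12 in I against C and 4.43 in DI against D) and PIR (0.92 and 0.82).

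Of 40 other glutathione genes 36 were tested, and their median log2 fold change was -0.14 in D against C and -0.16 in DI against I, beside 0.00 and -0.01 for all genes. By edgeR without the block 1 of the 36 was called in D against C (1.23% of all genes) and 0 in DI against I (0.67%). That gene, CHAC1, which degrades glutathione, rose with doxycycline. It was at 2.89, 2.43 and 1.93 CPM in C, 17.4, 10.04 and 69.1 in D, 1.34, 2.02 and 1.36 in I, with 18.5, 9.49 and 43.0 in DI, with every doxycycline library above every other. The log2 fold change of CHAC1 was 3.73 in D against C (SE 0.75, adjusted p = 0.0425) and 3.91 in DI against I (SE 0.77, adjusted p = 0.0523, or 0.00456 with the block). The CHAC1 call in D against C was kept in 3 of 15 fits that left out libraries. With doxycycline averaged, edgeR without the block called 4 of the 36 (7.68% of all genes), with CHAC1, SLC7A11 and SLC3A2 higher and MGST3 lower. With the block 12 of the 36 were called in D against C (13.9% of all genes), 4 higher and 8 lower, and 10 in DI against I (10.5%), 3 higher and 7 lower. CHAC1, SLC7A11 and its partner chain SLC3A2 rose in both, while the glutathione synthetase GSS and GGT1, GLO1, GSTM3, GSTZ1 and MGST3 fell in both. With IFNγ the glutaredoxin GLRX and the glutathione transferase GSTK1 rose in both comparisons, by 1.06 and 0.99 and by 1.56 and 1.24 on the log2 scale. They were the only 2 of the 36 called by edgeR without the block in I against C and in DI against D (2.21% and 1.72% of all genes).

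None of 24 other thioredoxin and peroxide genes was called by edgeR in the 4 comparisons of groups, where 1.23%, 0.67%, 2.21% and 1.72% of all genes were (D against C, DI against I, I against C and DI against D). In that order 2, 2, 1 and 1 were at an unadjusted p under 0.05 (14.2%, 12.2%, 8% and 6.24% of all genes), and DESeq2 called 1, 1, 1 and 0 (4.11%, 2.98%, 3.32% and 2.55%). Their median log2 fold change was -0.18 in D against C and -0.04 in DI against I. With the block 4 were called in D against C (13.9%) and 2 in DI against I (10.5%). SESN2, a stress-induced regulator, rose and the peroxiredoxin PRDX2 fell in both. With doxycycline averaged these were also the 2 of 24 called by edgeR without the block, where 7.68% of all genes were called. Among 20 tested genes of iron handling and lipid peroxidation, the median log2 fold change was -0.02 in D against C and 0.02 in DI against I. GCH1 was called in all 4 comparisons and was the only one of the 20 called by edgeR without the block in any of them. Of all genes 1.23% were called in D against C, 0.67% in DI against I, 2.21% in I against C and 1.72% in DI against D. GCH1 starts the synthesis of tetrahydrobiopterin, a cofactor that also traps lipid radicals. It was at 18.6, 17.4 and 23.9 CPM in C, 5.10, 6.42 and 9.73 in D, 49.4, 59.5 and 55.2 in I, with 17.2, 18.0 and 17.8 in DI, without overlap in any of the 4. It fell with doxycycline by 1.50 (SE 0.22, adjusted p = 0.0118) and by 1.63 under IFNγ (SE 0.21, adjusted p = 0.00672), and rose with IFNγ by 1.46 (SE 0.21, adjusted p = 0.00255) and by 1.32 under doxycycline (SE 0.22, adjusted p = 0.00672). Without replicate 3 of C the GCH1 call in D against C was lost. With the block 3 of the 20 were called higher and 2 lower in D against C (13.9% of all genes in either direction). In DI against I 2 were called higher and 1 lower (10.5%). DHODH and SLC7A11 rose and GCH1 fell in both. With doxycycline averaged, edgeR without the block called the same genes in the same directions (7.68%). Mean DHODH went from 27.5 CPM in C to 38.9 in D, and from 23.3 in I to 30.0 in DI.

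Among 19 genes of selenoprotein synthesis and other selenoproteins, the class to which GPX4 and TXNRD1 belong (median log2 fold change -0.08 in D against C and -0.12 in DI against I), SELENOK, a selenoprotein of the endoplasmic reticulum, fell with doxycycline. It was at 22.6, 24.9 and 27.8 CPM in C, 9.73, 11.5 and 13.4 in D, 24.9, 22.5 and 29.03 in I, with 11.8, 12.1 and 15.5 in DI, with all doxycycline libraries below all others. SELENOK was the only one of the 19 called by edgeR without the block in either doxycycline comparison (1.23% and 0.67% of all genes). The log2 fold change of SELENOK was -1.12 in D against C (SE 0.17, adjusted p = 0.0139) and -0.96 in DI against I (SE 0.17, adjusted p = 0.0338). These calls were kept in 8 and in 2 of the 15 fits that left out libraries. With the block 3 of the 19 were called in each doxycycline comparison (13.9% and 10.5% of all genes), and SELENOI, SELENOK and SELENOM fell in both. With doxycycline averaged and the block, 7 of the 19 were called (29% of all genes). Of these SELENOI, SELENOK, SELENOM, SELENOS and EEFSEC fell, and PSTK and SECISBP2, which serve selenocysteine synthesis and insertion, rose. PSTK was higher in 3 of 3 pairs without overlap in both doxycycline comparisons, but edgeR without the block called it in neither (log2 fold change 0.49 and 0.56, adjusted p = 0.317 and 0.304). Such patterns were common: 22.5% and 21.3% of all genes were higher in 3 of 3 pairs, and 19.2% and 16.6% did not overlap.

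**Figure D5:**
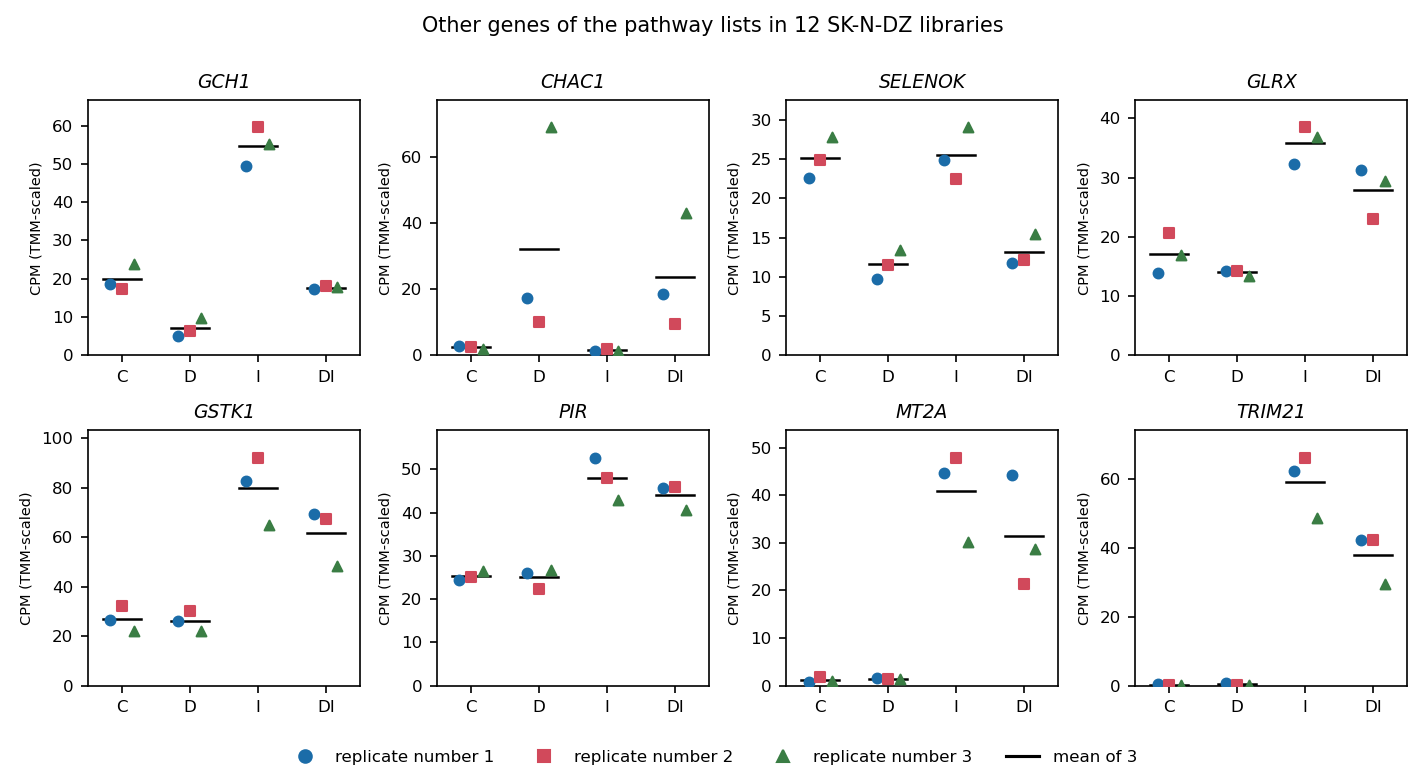
Level in CPM (TMM-scaled counts, linear axis) of 8 genes of the wider pathway lists that passed the test; each point is 1 library, its shape and colour give the replicate number, and the bar is the mean of 3. SELENOK is lower and CHAC1 is higher in D and DI, and GLRX, GSTK1, PIR, MT2A and TRIM21 are higher in I and DI. GCH1 is lower in D than in C and in DI than in I. It is also higher in I than in C and in DI than in D, so that DI overlaps C.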

How the data were processed

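RNA-seq of SK-N-DZ cells gave 12 libraries in 4 groups of 3, sorted by the sample titles. The authors deposited 1 table of raw counts per gene for the whole series, with Ensembl identifiers. The aligner, counting tool, strand setting, genome build and annotation are not given in the sources used here. The submitters' processing notes name DESeq2. The authors also deposited separate tables of comparisons with the control. Their 18 columns of per-library values were not used.

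The members and gene lists were chosen with earlier results of these data known. Named are the 10 genes, ARID1A and, per list, comparison and direction, up to 3 genes with the lowest adjusted p among those called by edgeR; genes called only with the block or in averaged comparisons, and PSTK and the markers, were named after their values were seen. Genes passed edgeR's filterByExpr (minimum count 10), leaving 15828 of 43769. Counts were scaled by TMM and tested with edgeR 4.0.16 (quasi-likelihood, R 4.3.3) in 1 fit of 4 groups, with Benjamini-Hochberg adjustment over all genes tested. DESeq2 1.42.0, other scalings, no filter, a replicate block, fits of 2 groups and fits that left out libraries were alternatives. The scripts were tested on simulated data. Averaged comparisons and the test of replicate number were added after the data were seen.

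Deviations from the group means correlated at 0.338 to 0.804 between same-numbered libraries (18 pairs) and at -0.628 to 0.143 between differently numbered libraries (36 pairs), so the numbers were taken to pair the libraries. The labels do not say what a number marks. A chi-square per degree of freedom of 18.6 to 82.2 between replicates of a group showed no duplicate library. Positions and exonic lengths came from GENCODE 29 (GRCh38), matched on the Ensembl identifier, and promoter windows from RefSeq.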

Additional observations from a re-analysis of the deposited data

How the results depend on the processing

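In the planned comparisons 0 of the 10 genes were called under the other scalings, without the filter, by DESeq2 or from 2 groups alone, as in the edgeR fit reported. The replicate block called 1 of the 10 genes in DI against I (GCLC), 1 in DI against D (GCLM), 4 for doxycycline averaged and 2 for IFNγ averaged, and changed no other call of the 10 genes. For doxycycline averaged, library size alone and DESeq2 each called 1 (NQO1). Over all genes D against C (194) gave 119 without a filter, 650 with DESeq2, 2200 with the block and 16 from the libraries of its 2 groups alone. DI against I (106) gave 471, 1658 and 0 with DESeq2, the block and its 2 groups alone. I against C (350) gave 529 with DESeq2 and 953 with the block, DI against D (273) gave 706 with the block, and the interaction (0) gave 1 with DESeq2. Doxycycline averaged (1216) gave 752 without a filter, 1996 with DESeq2 and 4593 with the block, and IFNγ averaged (603) gave 1724 with the block. Library size alone turned the calls higher and lower from 78 and 116 to 199 and 89 in D against C, from 16 and 90 to 54 and 65 in DI against I, and from 579 and 637 to 1250 and 431 for doxycycline averaged, moving the median of all genes to 0.0852 to 0.0882. The causes were not tested.

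Signs turned for values near 0: GSR in DI against D (0.0018 with the block, 0.00181 from its 2 groups alone), NQO1 in the interaction (0.00517 with the block), NFE2L2 for doxycycline averaged (0.0444 with library size alone) and HMOX1 for doxycycline averaged (0.0173 with the block). Leaving out 1 library, or all 4 of a replicate number, gave 0 to 195 genes in D against C, 0 to 96 in DI against I, 127 to 364 in I against C, 98 to 279 in DI against D, 71 to 1362 for doxycycline averaged and 230 to 562 for IFNγ averaged, each lowest without replicate 1. No call among the 10 genes arose in the planned comparisons, and 0 to 2 arose for doxycycline averaged (2 without replicate 2). The log2 fold changes that crossed 0 ran as follows. In D against C NFE2L2 -0.0754 to 0.121, GCLM -0.125 to 0.47, HMOX1 -0.527 to 0.83, SRXN1 -0.521 to 0.478, GCLC -0.12 to 0.363, TXNRD1 -0.197 to 0.338 and KEAP1 -0.0187 to 0.217. In DI against I GPX4 -0.558 to 0.0253, GCLM -0.0468 to 0.575, NFE2L2 -0.273 to 0.0124 and HMOX1 -0.795 to 0.0173. In I against C HMOX1 -0.311 to 0.518, SRXN1 -0.575 to 0.0616 and GPX4 -0.527 to 0.0556. In DI against D GSR -0.204 to 0.154, SRXN1 -0.174 to 0.826, NQO1 -0.156 to 0.717, GCLC -0.352 to 0.203, TXNRD1 -0.277 to 0.266 and GPX4 -0.38 to 0.0407. In the interaction NQO1 -0.406 to 0.468, GCLC -0.109 to 0.446, GCLM -0.218 to 0.452, GPX4 -0.2 to 0.394, KEAP1 -0.0287 to 0.148, TXNRD1 -0.0848 to 0.458 and GSR -0.106 to 0.252. In doxycycline averaged HMOX1 -0.653 to 0.32, NFE2L2 -0.164 to 0.0665 and TXNRD1 -0.0252 to 0.311. In IFNγ averaged HMOX1 -0.352 to 0.0623, SRXN1 -0.222 to 0.301, TXNRD1 -0.234 to 0.037 and GSR -0.151 to 0.0285. Where a fit left a number out, 2 libraries per group remained.

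Of the other genes, TRIM21 and MT2A were called in all 15 such fits in both IFNγ comparisons, MAFF in 9 in DI against D, and GCH1 in 11, 12, 13 and 13 (D against C, DI against I, I against C, DI against D). GSTK1 and PIR were lost in I against C only without replicate 1, and GLRX without replicate 1 or 3. Depth limits HMOX1, with 9 to 48 counts, and SRXN1, with 30 to 124.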
